A study of Macaca mulatta with 5 samples.

Results

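Cells matured at the end of a serotonin neuron protocol were compared with the rhesus embryonic stem cells they came from. The comparison took the array of the last stage, N3, against the array of the starting stage, ESC, and so used 2 of the 5 arrays of the series, with 1 array on each side. The array named 14132 genes, and 11232 of them reached a signal of 100 on at least 1 of these arrays and are called measured here.

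All 5 arrays came from line 366.4, which was derived from a flushed rhesus monkey preimplantation embryo. The ESC cells were taken at passage 13 and grew on a layer of mouse embryonic fibroblasts. They then passed through embryoid bodies collected after 6 to 8 days (EB), neurospheres under selection, grown with N2 supplement for 7 to 9 days (N1), and spheres expanded with FGF4 for 7 to 9 days (N2). For N3 the spheres matured without FGF4 in wells reduced in growth factor, and the submitters call that stage differentiating serotonin neurons. How the neurospheres were selected is not given in the sources used here, and no genetic change is named. Every stage is a single sample, so no difference below has a replicate check, an error or a p-value.

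Embryonic stem cells keep open the option of every lineage through a small set of transcription factors around POU5F1, SOX2 and NANOG, and they divide fast. Neural differentiation shuts most of that set down while keeping SOX2 in progenitors. Serotonin neurons form in the hindbrain, where NKX2-2, GATA2, GATA3, LMX1B and FEV lead to the synthesis enzyme TPH2, the transporter SLC6A4 and the vesicle transporter SLC18A2.

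Signals are array intensities scaled so that each array had a mean of 500 after 2% of its probe sets were trimmed at each end. Values under the floor of 100 were set to it before a ratio was taken, so a ratio with 1 side below the floor is a bound, written "at least". Each gene was read from its brightest named probe set over the 5 arrays, and higher or lower means at least 2-fold in N3 against ESC. For 4605 genes a second probe set could be compared, and the log2 ratios of a gene's brightest pair differed with an SD per probe set of 0.82. The 3' to 5' signal ratio of actin was 1.73 in ESC and 8.63 in N3, with 15.2 in EB, 5.43 in N1 and 25.2 in N2. That of GAPDH was 1.94 in ESC and 2.10 in N3, with 2.78 in EB, 1.69 in N1 and 7.10 in N2, and the part of RNA quality in the differences was not tested. Genes at 100 or more numbered 10325 in ESC and 9950 in N3. Fewer cells of a type and less RNA per cell cannot be told apart in these bulk samples.

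Of the measured genes, 1935 were higher in N3, which is 17.2%, and 1847 were lower, which is 16.4%, so that 33.7% were past 2-fold. Counts for each list below are to be read against these shares. Large differences were mostly toward N3, since 283 genes were at least 8-fold higher and 61 at least 8-fold lower. Over the measured genes the log2 ratio had a median of -0.13. Higher genes made up 51.2% of those past 2-fold. Scaling to the hybridisation control probe sets moved this share to 63.6% and the median of all genes to 0.04. With quantile normalisation the share was 45.9%, with a gene as the median of its probe sets 46.3%, with a floor of 50 it was 47.0% and with no floor 47.1%, so that lower genes were then the more numerous. Where the median of a gene list moved by over 1.5-fold or changed sign under another scaling, floor or choice of probe set, its range over these settings is given beside it. Of 910 higher genes with a second measured probe set, 690 (75.8%) had the same sign there, against 610 of 716 lower genes (85.2%). The second probe set was past 2-fold the same way for 375 (41.2%) of the higher and 385 (53.8%) of the lower genes, and past 2-fold the opposite way for 40 and 36.

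**Figure D1:**
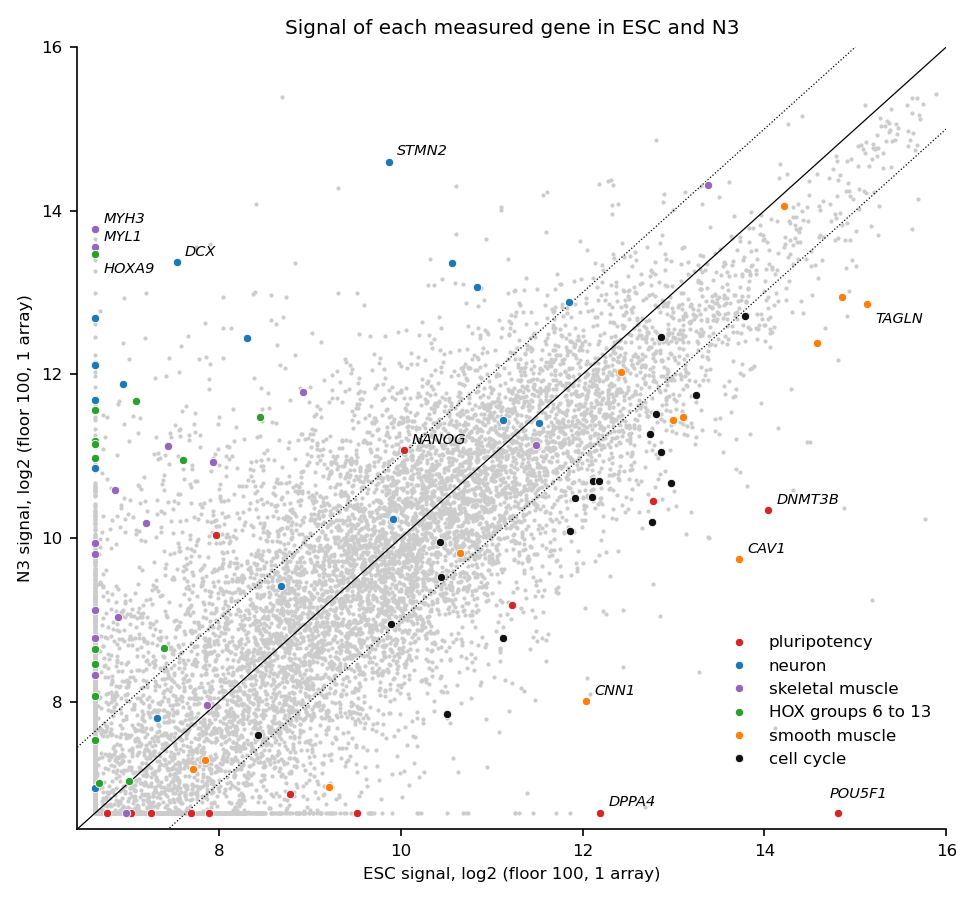
Signal in N3 (vertical axis, log2, floor 100) against signal in ESC (horizontal axis, log2, floor 100) for the 11232 measured genes, 1 array each; coloured points are members of 6 gene lists and dotted lines mark 2-fold. Cell cycle and smooth muscle genes lie on or under the diagonal, while POU5F1 and DPPA4 lie on the N3 floor and MYH3, MYL1 and HOXA9 on the ESC floor.

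The stem cell programme was lower in N3, with an exception in NANOG. Of 14 measured genes of pluripotency, 2 were higher, 9 were lower and 3 lay inside 2-fold, and their median log2 ratio was -1.58 (-2.20 to -1.53 under other settings). POU5F1, the central transcription factor of the set, had signals of 28621 (ESC), 906 (EB), 249 (N1), 80.3 (N2) and 14.7 (N3), which made it at least 286-fold lower in N3, the largest difference among measured genes. The signal was lower at each later stage and under the floor from N2 on. DPPA4, a chromatin protein of early embryonic cells, was under the floor by EB, with 4678, 74.9, 71.5, 40.4 and 45.8 in ESC, EB, N1, N2 and N3, and was at least 46.8-fold lower. The de novo DNA methyltransferase gene DNMT3B was 12.99-fold lower, from 16813 to 1294. PRDM14, a repressor of differentiation genes, was at least 7.35-fold lower. LIN28B, which blocks processing of let-7 precursors, kept 9472 in EB and 5386 in N1 before reaching 1400.1 in N3, 4.99-fold lower than the 6987 of ESC. SALL4, a zinc finger partner of POU5F1, was 4.14-fold lower (2395 to 579).

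NANOG, another core factor, did not follow POU5F1: its signals were 1047 (ESC), 1178 (EB), 2145 (N1), 1169 (N2) and 2155 (N3). It was thus 2.06-fold higher in N3, on a single probe set. KLF4 was 4.19-fold higher on its brightest probe set, while another had a log2 ratio of -0.33. ZFP42, a stem cell marker, was near the floor on both arrays, with 109 in ESC and 80.8 in N3. Among the stem cell markers LIN28A and TDGF1 were not analysed here.

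Neural progenitor genes were higher in N3 for most measured members, and several of them had a signal in ESC too. Of 10 measured members, 6 were higher, 2 were lower and 2 lay inside 2-fold, with a median of 1.20. SOX2, used by both stem cells and neural progenitors, had 19736 (ESC), 3413 (EB), 5056 (N1), 13336 (N2) and 14978 (N3). It was lower in the middle stages than at either end, and its ESC and N3 signals lay inside 2-fold. HES5, a Notch target of dividing neural progenitors, was under the floor in ESC and EB and was at 2586 in N3, at least 25.9-fold higher. PAX6, a transcription factor of neural progenitors, was 4.41-fold higher, with 753, 419, 306, 3301 and 3322 from ESC to N3. The step in PAX6 lay between N1 and N2. SOX11, which acts in newly formed neurons, was 12.9-fold higher (1567 to 20267), and its other probe sets had log2 ratios of 2.75 and 2.37. SOX4, a relative of SOX11, was 2.15-fold higher from a high start (8946 to 19199). HES6, which promotes neuronal differentiation, was 8.22-fold higher. SOX9, a factor of later, glia-forming progenitors, was at least 2.44-fold higher. Lower members were ZIC2 (2.22-fold lower) and PROM1 (2.19-fold lower), though another PROM1 probe set had a log2 ratio of 2.81. NES was not analysed here.

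Genes of young neurons were higher in N3. Of 18 measured, 12 were higher, 0 were lower and 6 lay inside 2-fold, with a median of 3.46 (2.85 to 3.62 under other settings). DCX, a microtubule protein of migrating neurons, had 186 (ESC), 535 (EB), 2222 (N1), 6488 (N2) and 10607 (N3). The signal was higher at each later stage. It was 57.2-fold higher, but a second DCX probe set had a log2 ratio of -0.02. STMN2, a tubulin-binding protein of growing neurites, had 935, 1986, 12594, 13995 and 24814 from ESC to N3 and was 26.5-fold higher, with 5.83 on its other probe set. ELAVL4, a neuronal RNA-binding protein, was at least 44.9-fold higher, and its other probe set gave 5.86. INSM1, a zinc finger factor of newborn neurons and endocrine cells, was at least 44.2-fold higher, from 10.2 to 4422. EBF1, a factor of early neuronal differentiation and of other lineages, was at least 66.2-fold higher, with 1.78 on its other probe set. ISL1, a homeodomain factor of motor and sensory neurons among other cells, was at least 33.1-fold higher and was already at 1859 in EB. DPYSL3, a growth cone phosphoprotein, was 30.7-fold higher (123 to 3782). TUBB3, the neuronal beta tubulin, was high at the start, with 3684 (ESC), 663 (EB), 2852 (N1), 1819 (N2) and 7589.9 (N3). Its 2.06-fold higher signal in N3 was just past the threshold, and its other probe sets had log2 ratios of 1.63, 5.12 and -0.43.

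Of 12 measured genes of the synapse, 4 were higher (33.3%), 1 was lower (8.33%) and 7 lay inside 2-fold, with a median of 0.58. Over all measured genes 17.2% were higher and 16.4% lower. SYT4, a synaptotagmin of dense core vesicles, was the exception in size, with 12.2 (ESC), 38.2 (EB), 1149 (N1), 5489.8 (N2) and 8174 (N3), at least 81.7-fold higher. RAB3A, a vesicle GTPase, was at least 6.11-fold higher, the adhesion protein gene NLGN1 was 2.93-fold higher and the complexin gene CPLX2 was 2.42-fold higher. STX1A, a membrane fusion protein, was 2.05-fold lower (245 to 119.6). SYT1, the calcium sensor of fast transmitter release, had 4177, 329, 529.7, 1768 and 2985 from ESC to N3, inside 2-fold between the ends. SNAP25 was not analysed here. Summed over the 5 neuron markers with a probe set, the signal was 9058 in ESC and 50485 in N3, and 4 of them were at the floor or above in ESC and 5 in N3.

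**Figure D2:**
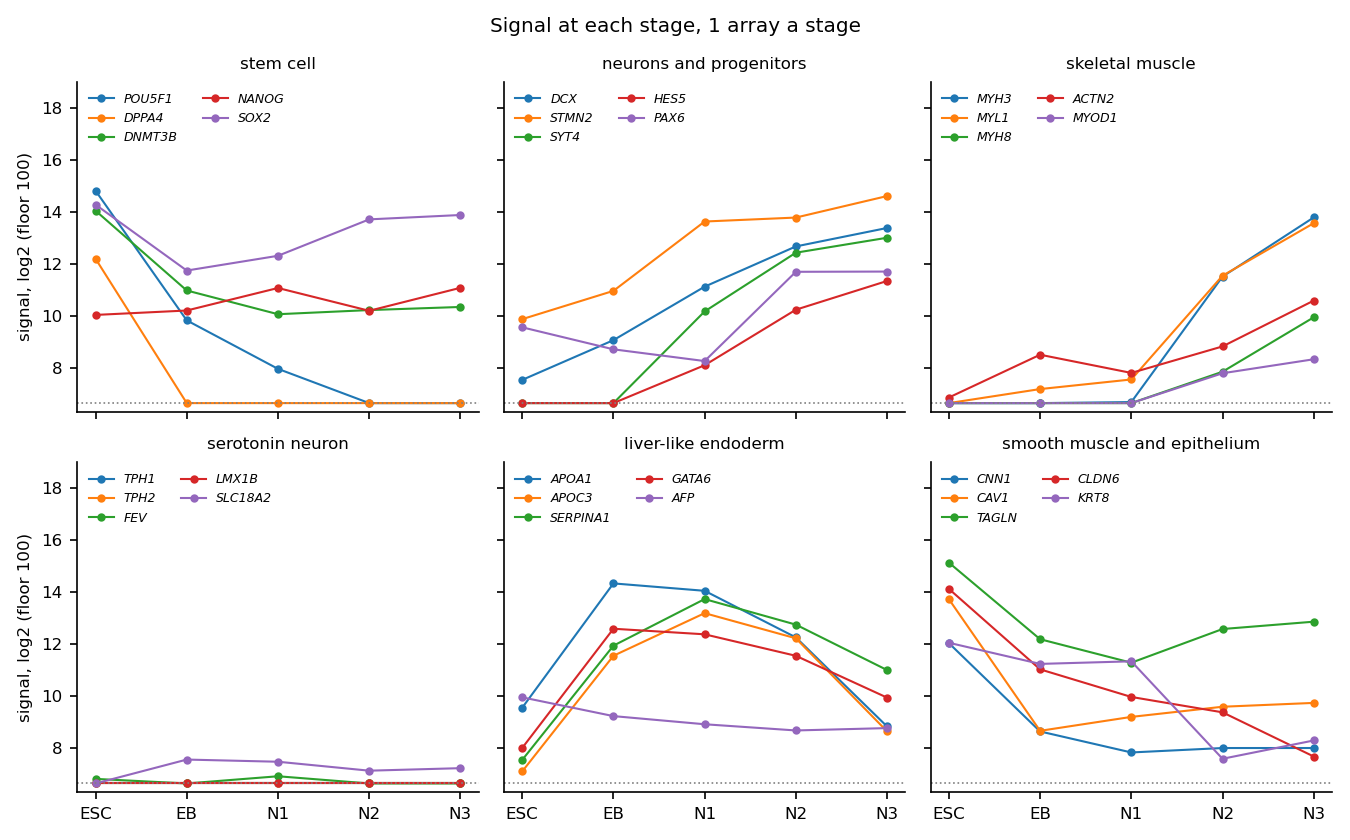
Signal (vertical axis, log2, floor 100) at each of the 5 stages (horizontal axis), 1 array a stage, for 5 genes in each of 6 groups; the dotted line is the floor and lines join the stages of a gene. POU5F1 and DPPA4 reach the floor before N3, MYH3 and MYL1 stand far above it in N2 and N3, and TPH1, TPH2 and LMX1B stay on it at every stage.

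The markers that define serotonin neurons lay under or near the floor in N3. TPH1 and TPH2, the tryptophan hydroxylases that begin serotonin synthesis, had 13.2 in ESC and 3.06 in N3 for TPH1 and 7.28 in ESC and 5.36 in N3 for TPH2, all under the floor. LMX1B, a factor that serotonin neurons need, was also under the floor on both arrays (37.4 to 24.7). FEV, the factor that most closely marks these neurons, had 113 (ESC), 89.6 (EB), 121 (N1), 65.98 (N2) and 85.3 (N3), close to the floor throughout. SLC18A2, the transporter that loads serotonin into vesicles, went from 86.9 to 150.3, at least 1.50-fold higher and so a bound inside 2-fold. DDC and the serotonin transporter gene SLC6A4 were not analysed here, so a part of the marker set is unread. Of 9 serotonin markers 7 had a probe set, of which GATA2 and GATA3 were at 100 or more on both arrays, FEV in ESC alone and SLC18A2 in N3 alone. Their summed signal was 713 in ESC and 1271 in N3, of which GATA3 made up 348 and 895.

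Among genes of serotonin synthesis, transport and reception, 2 were higher (28.6%), 3 were lower (42.9%) and 2 lay inside 2-fold of 7 measured. Their median was 0.59 and their mean -0.03, so the 2 differ in sign. All measured genes had 17.2% higher and 16.4% lower. The higher genes were MAOA, which breaks serotonin down (2.28-fold higher, 397 to 906), and SLC18A1, a vesicular monoamine transporter best known from endocrine cells (at least 2.74-fold higher, reaching 274). The lower genes were GCH1, which starts synthesis of the hydroxylase cofactor (3.37-fold lower), and the receptor genes HTR1B (at least 2.44-fold lower) and HTR3A (at least 2.22-fold lower). HTR1A, HTR2A and HTR2B were under the floor on both arrays. For upstream identity factors, 3 were higher (37.5%), 0 were lower and 5 lay inside 2-fold of 8 measured (median 0.87). NKX6-1, FOXA1 and FOXA2 were under the floor in ESC, and FEV (113), GATA2 (108) and PTCH1 (108) near it. None of these genes could thus be called lower. FOXA1, a pioneer factor of floor plate and endoderm, was at least 5.23-fold higher and had its peak of 4456 in EB, with 523 left in N3. FOXA2 was at least 3.25-fold higher, with 617 in EB. GATA3 was 2.58-fold higher, with 3911 in EB, and this gene also marks trophoblast and other lineages. GATA2 had 108 in ESC and 107 in N3.

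Transmitter genes of other neurons differed between classes. GABA neuron genes had 4 of 6 measured members higher and 0 lower, with a median of 2.59 (1.74 to 3.41 under other settings). GAD1, a glutamate decarboxylase that makes GABA, had 7.17 (ESC), 526 (EB), 162 (N1), 484 (N2) and 2342 (N3), at least 23.4-fold higher. The related gene GAD2 was 10.4-fold higher (118 to 1230.2). DLX1, a homeodomain factor of forebrain GABA neurons, was at least 8.38-fold higher, and the receptor subunit gene GABRA2 was at least 4.30-fold higher. Second probe sets gave 1.42 and 1.14 for GAD1, 1.31 for GAD2 and 1.05 for DLX1, the same sign at a smaller size.

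Of glutamate neuron genes, 4 were higher, 1 was lower and 1 lay inside 2-fold of 6 measured, with a median of 1.42. The higher members were the receptor subunit genes GRIA4 (at least 6.48-fold higher), GRIK2 (at least 5.91-fold higher, other probe set 0.14) and GRIA1 (2.77-fold higher) and the vesicular transporter gene SLC17A8 (at least 2.59-fold higher). EOMES, a factor of cortical progenitors and of early mesendoderm, was at least 4.04-fold lower. Catecholamine and cholinergic genes had no member past 2-fold on its brightest probe set among 8 measured. Their log2 ratios there ran from -0.63 to 0.97. NR4A2 had 0.88 on that probe set, but its other probe sets were all past 2-fold higher (1.01, 3.57, 3.59 and 1.79).

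Neuropeptide and dense core vesicle genes had 4 of 7 measured members higher and 1 lower (median 1.77, 0.63 to 1.98 under other settings). NPY, a peptide of many interneurons and sympathetic neurons, had 99.03 (ESC), 89.97 (EB), 67.7 (N1), 330.4 (N2) and 2860.5 (N3), so most of its at least 28.6-fold higher signal came in the last stage. The granin gene SCG2 was at least 14.7-fold higher (24.7 to 1472), the prohormone convertase gene PCSK2 at least 4.26-fold higher and the granin gene CHGB 3.42-fold higher. VGF, a secreted neuronal granin, was 3.15-fold lower, with 4127, 381, 236, 1338 and 1309 from ESC to N3. Its lowest signals were in EB and N1.

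Genes of voltage-gated and related ion channels showed 5 higher and 2 lower members of 10 measured, with a median of 0.81 (0.38 to 1.66 under other settings). SCN3A, the sodium channel of the embryonic brain, had 6.41 (ESC), 34.1 (EB), 337 (N1), 1694 (N2) and 2373 (N3), at least 23.7-fold higher. SCN2A, which succeeds it in axons, was at least 9.09-fold higher, with a log2 ratio of 0.38 on its other probe set, and SCN1A was at least 2.46-fold higher. The potassium channel gene KCNH2 was 4.80-fold higher, but its other probe sets had log2 ratios of -0.16 and 0.22. The inward rectifier gene KCNJ6 was 2.09-fold higher. KCND2 (at least 2.87-fold lower) and the calcium channel gene CACNA1B (2.76-fold lower, other probe set -0.19) were lower.

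Axon guidance genes were higher for 13 of 19 measured members, with 1 lower, with a median of 1.68. EPHA3, a receptor for ephrin repellents, had 338 (ESC), 948 (EB), 2559 (N1), 6172 (N2) and 8256 (N3), 24.4-fold higher, with 1.16 on its other probe set. EPHB1, another ephrin receptor, was at least 30.1-fold higher, and EPHA5 was at least 7.76-fold higher. SLIT2, a midline repellent, was 15.8-fold higher and was at 3617 by EB. The semaphorin co-receptor gene PLXNA2 was 17.6-fold higher, with other probe sets at 3.79 and 0.24. EPHA4 was 7.45-fold higher. SEMA3A, a secreted repellent, was the lower member (2.0-fold lower, 1389.6 to 694).

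HOX genes, which mark position along the body axis, were mostly higher in N3. None was lower by 2-fold, but all measured members except HOXC6 (351 in ESC) started too near the floor to be called lower. Under the floor in ESC, and so measured only through N3, were 5 members of groups 1 to 5 and 9 of groups 6 to 13. Of 8 measured genes of paralog groups 1 to 5, whose anterior limits lie in the hindbrain and neck, 7 were higher and 0 lower (median 2.63, 1.96 to 4.07 under other settings). For groups 6 to 13, of trunk and tail, 12 of 15 were higher and 0 lower (median 3.02, 2.01 to 3.34 under other settings). HOXA9 had 53.4 (ESC), 5869 (EB), 5296 (N1), 8979.8 (N2) and 11316 (N3), at least 113-fold higher. The gene was thus already high in EB. HOXA10 was at least 30.2-fold higher, HOXD10 23.9-fold higher, HOXA7 at least 23.4-fold higher, HOXB7 at least 22.6-fold higher and HOXB8 at least 20.1-fold higher. Members of the anterior groups followed with HOXA5 (22.1-fold higher), HOXB5 (at least 12.8-fold higher), HOXA3 (at least 12.3-fold higher), HOXD4 (at least 7.79-fold higher) and HOXD3 (at least 4.95-fold higher). HOXA2, a gene of the hindbrain and cranial crest, was at 212 in N3. HOXB1, HOXB13 and HOXC12 were under the floor on both arrays.

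**Figure D3:**
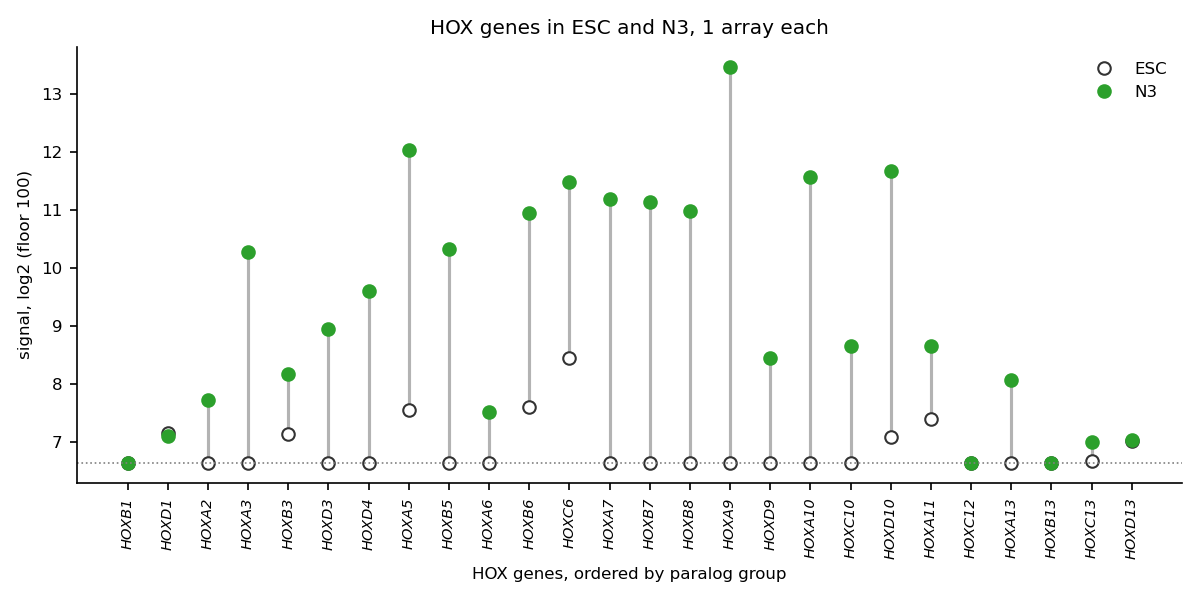
Signal (vertical axis, log2, floor 100) of the HOX genes with a probe set in ESC (open circles) and N3 (filled circles), 1 array each, ordered by paralog group. Most ESC circles lie on or near the dotted floor line, and the N3 circles of HOXA9, HOXA5, HOXD10 and HOXA10 lie far above their ESC values.

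HOX cofactors and other regional factors stood among the largest ratios. MEIS2, a homeodomain cofactor of HOX proteins, was 29.7-fold higher and had 265, 6991, 6810.5, 8019 and 7862 from ESC to N3. NR2F1, a nuclear receptor that patterns the nervous system, was 55.9-fold higher, with 5.31 on a second probe set. DACH1, a nuclear factor of eye, limb and neural tube, was 36.3-fold higher (129 to 4673). CYP26A1 differed the other way. It breaks down retinoic acid, the signal that switches on HOX genes, and had 6571 (ESC), 806 (EB), 191 (N1), 338 (N2) and 105 (N3), 62.7-fold lower. Its other probe set gave -1.69.

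Glial genes were higher for 5 of 9 measured members, with 0 lower, with a median of 1.60 (0.93 to 1.80 under other settings). SLC1A2, a glutamate transporter of astrocytes, was under the floor in ESC and EB and had 149 in N1, 653 in N2 and 2340.0 in N3, at least 23.4-fold higher. SLC1A3, the transporter of radial glia and astrocytes, was 10.9-fold higher (408 to 4452, other probe set 1.30). SOX10, a factor of oligodendrocytes and neural crest, was at least 5.48-fold higher, but its other probe set had -0.24. The calcium-binding protein gene S100B was at least 5.13-fold higher and the aldolase gene ALDOC 3.02-fold higher. GFAP, the filament protein of mature astrocytes, had 911 in ESC and 684 in N3. OLIG2, a factor of motor neuron and oligodendrocyte progenitors, went from 79.6 to 151, inside 2-fold.

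Neural crest genes were higher for 7 of 10 measured members, with 1 lower (median 2.76, 1.06 to 2.99 under other settings). TFAP2A, a factor of the neural plate border and its crest, had 44.6 (ESC), 1351 (EB), 2165 (N1), 5526 (N2) and 6271 (N3), at least 62.7-fold higher. PAX3, which acts in crest, dorsal neural tube and muscle progenitors, was at least 18.9-fold higher, and its other probe sets had log2 ratios from 0.93 to 2.10. TFAP2B was at least 15.9-fold higher. The homeodomain gene MSX1 was 10.01-fold higher and MSX2 at least 8.35-fold higher, with peaks in EB of 3212 and in N1 of 2300.1. FOXD3, needed in both stem cells and crest, was the lower member (2.54-fold lower, 1368 to 538, other probe set -0.42). Other probe sets of MSX2 (-0.45, 2.69 and 0.22), TFAP2A (3.09 and -0.37) and TFAP2B (0.13) gave weaker or opposite ratios. The MSX2 direction turns to a log2 ratio of -0.45 with a floor of 50, with no floor or with the probe set brightest over ESC and N3.

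Skeletal muscle genes were mostly higher in N3. Of 17 measured, 13 were higher, 0 were lower and 4 lay inside 2-fold, with a median of 2.86 (2.23 to 3.67 under other settings). MYH3, the embryonic myosin heavy chain, had 38.3 (ESC), 14.2 (EB), 103 (N1), 2905 (N2) and 14054 (N3). It was at least 141-fold higher, the largest bound among higher genes. MYL1, a fast skeletal myosin light chain, had 44.99, 145, 188, 2974 and 12049 from ESC to N3, at least 120.5-fold higher. Both genes were far higher in N2 than in N1 and higher again in N3. ACTN2, a Z-disc protein, was 13.2-fold higher, and its other probe sets gave 3.14, 2.16 and 0.95. The troponin gene TNNI1 was 12.8-fold higher, the perinatal myosin gene MYH8 at least 9.83-fold higher and the myosin-binding protein gene MYBPC1 at least 8.92-fold higher. MYOD1, the muscle-determining factor, was under the floor up to N1, at 221 in N2 and at 322 in N3. The other muscle markers, MYOG and ACTA1, were not analysed here. The summed signal of MYOD1 and MYH3 was 56.7 in ESC and 14376 in N3.

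Heart genes were mixed: 5 were higher, 2 were lower and 4 lay inside 2-fold of 11 measured, with a median of 0.64 (0.52 to 1.77 under other settings). TNNT2, cardiac troponin T, had 138 (ESC), 3926 (EB), 1759 (N1), 864 (N2) and 2487 (N3), 18.03-fold higher. MYH6, the atrial myosin heavy chain, was at least 12.3-fold higher, after a peak of 2498 in EB, with 2.50 and -0.13 on its other probe sets. MYL7, an atrial light chain, was 5.66-fold higher, NPPA 4.51-fold higher and HAND2 at least 3.48-fold higher. These genes peaked in EB or N1 and were lower in N3 than at that peak. From N2 to N3, TNNT2, MYH6 (855 to 1232), MYL7 (1656 to 1833) and NPPA (374 to 557) were higher again, and HAND2 was lower (408 to 348). NPPB, a natriuretic peptide gene, was lower in N3 than in ESC, with 3726 in ESC and 48.4 in N3, at least 37.3-fold lower. TNNI3 was 2.34-fold lower. NKX2-5 was not analysed here.

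Smooth muscle and actin cytoskeleton genes had a median of -1.62, and 8 of 13 measured members were lower and 0 higher. CNN1, a calponin of contractile cells, had 4201 (ESC), 399.6 (EB), 228 (N1), 257 (N2) and 257 (N3), 16.3-fold lower. CAV1, the coat protein of caveolae, was 15.9-fold lower (13547 to 855), and its other probe sets gave -4.89 and -4.87. TAGLN, an actin cross-linker, was 4.82-fold lower, from 35825 to 7431. The smooth muscle myosin gene MYH11 was 4.74-fold lower and the actin gene ACTG2 4.57-fold lower. CALD1, caldesmon, was 3.76-fold lower, with other probe sets from -4.08 to 0.09. TPM1 and TPM2 lay inside 2-fold on their brightest probe sets, but another probe set of each was past 2-fold higher (2.14 and 4.83). Their remaining probe sets ran from -0.63 to 0.09 for TPM1 and from -2.02 to -0.49 for TPM2. Most of the difference lay between ESC and EB, as CNN1 and CAV1 show. ESC was the stage grown on mouse fibroblasts. The 5 fibroblast and smooth muscle markers with a probe set were all above the floor on both arrays, and their summed signal was 49747 in ESC and 34451 in N3. The part of feeder cells in these signals was not tested.

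Matrix genes of fibroblasts went mostly the other way: 12 were higher, 4 were lower and 5 lay inside 2-fold of 21 measured (median 2.15, 1.15 to 2.41 under other settings). LUM, a collagen-binding proteoglycan, had 46.04 (ESC), 17532 (EB), 14991 (N1), 17003 (N2) and 12912 (N3), at least 129-fold higher. DCN, decorin, had 13.8, 7189, 10986, 11974 and 9821 from ESC to N3, at least 98.2-fold higher, with all of its other probe sets higher (6.65, 6.35, 4.06 and 1.27). Both were thus at or near their N3 signal in EB. The collagen gene COL6A3 was 23.1-fold higher, the matrix glycoprotein gene TNC at least 18.5-fold higher and LOX, the collagen cross-linking enzyme, 11.1-fold higher (other probe sets 1.36 and -0.29). FBN1, fibrillin, was 18.4-fold higher, with other probe sets at 0.90, -0.10 and 1.39. COL1A1, the main fibrillar collagen, was 4.43-fold higher (4635 to 20539), while COL1A2 had 3312 in ESC and 4258 in N3. Lower members were S100A4 (3.52-fold lower), COL3A1 (2.99-fold lower), the surface protein gene THY1 (2.66-fold lower) and COL5A2 (2.38-fold lower), whose other probe sets disagreed (3.86, 2.46 and -2.57). CCDC80, a secreted matrix protein, was 62.6-fold higher, with 4.77 and 0.62 on its other probe sets.

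Cartilage and bone genes had 4 of 9 measured members higher and 1 lower (median 0.78, 0.21 to 1.59 under other settings). COL2A1, the collagen of cartilage and notochord, had 157 (ESC), 4487 (EB), 6226 (N1), 6524 (N2) and 3971 (N3), 25.3-fold higher. The link protein gene HAPLN1 was at least 5.18-fold higher with 12494 in EB and 518 in N3. RUNX2, the osteoblast factor, was 4.68-fold higher, against -1.41 on its other probe set, and COL11A1 was 3.50-fold higher. SPP1, osteopontin, a secreted phosphoprotein of bone, macrophages and epithelia, went from 55894 in ESC to 786 in EB and 1203 in N3, 46.5-fold lower.

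**Figure D4:**
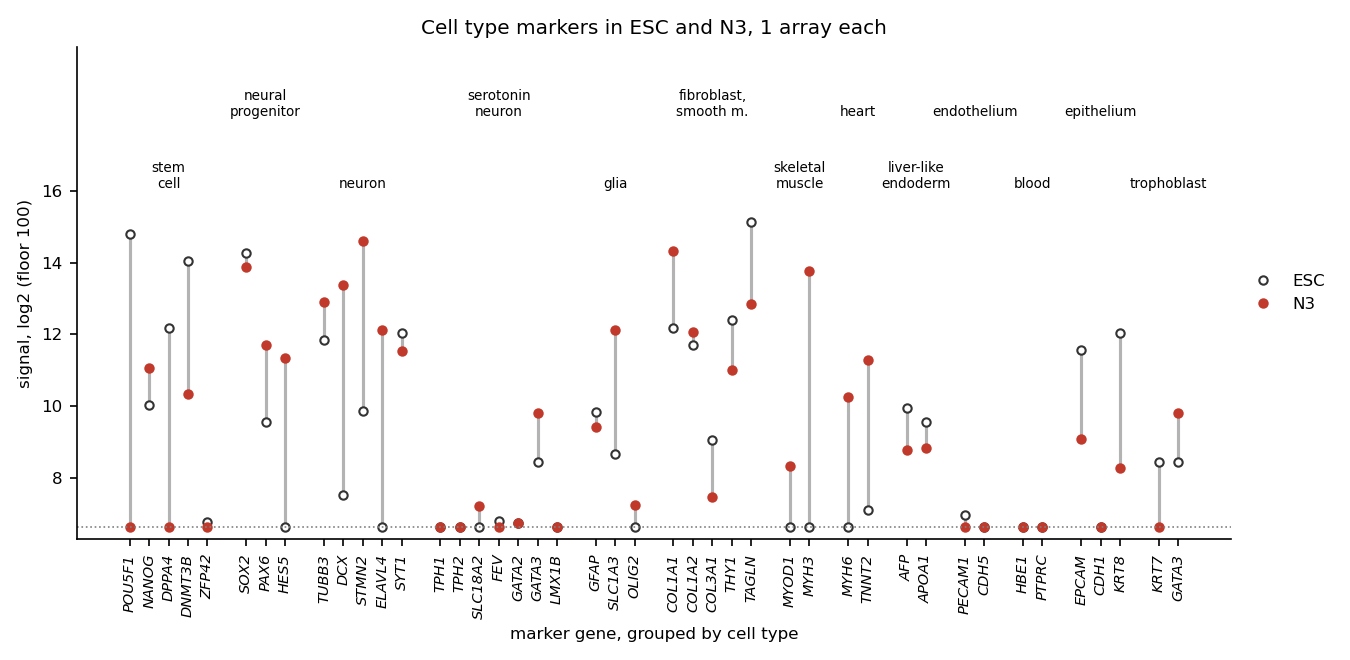
Signal (vertical axis, log2, floor 100) of cell type markers in ESC (open circles) and N3 (filled circles), 1 array each, grouped by the cell type they mark; GATA3 appears in both lists that hold it. DCX, STMN2, ELAVL4, MYH3, MYH6 and TNNT2 lie higher in N3, POU5F1, DPPA4, EPCAM and KRT8 lie higher in ESC, and TPH1, TPH2, LMX1B, CDH5, HBE1 and PTPRC lie on the floor in both.

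Liver-like endoderm genes had no common direction between ESC and N3, and 9 of the 12 measured had their highest signal of the 5 stages in EB or N1. Of 12 measured, 6 were higher, 4 were lower and 2 lay inside 2-fold, with a median of 0.80 (-0.20 to 1.48 under other settings). APOA1, the main protein of high-density lipoprotein, had 751 (ESC), 20596 (EB), 16909 (N1), 4889.6 (N2) and 456 (N3), so the ends lay inside 2-fold around a high middle. SERPINA1, the liver's protease inhibitor, was 10.9-fold higher and still at 2049 in N3 after 13569 in N1. Its other probe sets had log2 ratios of 0.01, 2.69, -2.29 and -0.65. GATA6, a factor of endoderm and heart, was 3.82-fold higher, APOC3 2.91-fold higher and AHSG at least 2.84-fold higher. For APOC3 another probe set gave -0.36. The median of the list was -0.20 once probe sets with names ending in _s_at, _x_at or _a_at were left out. APOB (at least 2.10-fold higher) and APOA2 (at least 2.05-fold higher) were near the threshold. The endoderm factor genes FOXA3 (at least 5.55-fold lower) and SOX17 (at least 2.27-fold lower), the secreted antagonist gene CER1 (at least 3.98-fold lower) and the fetal albumin gene AFP (2.27-fold lower) were lower. ALB was not analysed here.

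The endothelial markers PECAM1 and CDH5 and the blood markers HBE1 and PTPRC were near or under the floor at both ends. Of 5 measured endothelial genes 0 were higher and 1 lower, the latter being the angiopoietin receptor gene TEK (2.05-fold lower, 3070.1 to 1499). PECAM1, an endothelial junction protein, had 126 (ESC), 1291 (EB), 523 (N1), 300.3 (N2) and 60.9 (N3), and CDH5 was under the floor in ESC and N3 with 919 in EB. Both endothelial markers were thus below the floor in N3. HBE1, embryonic globin, and PTPRC, the leukocyte surface phosphatase, were under it on both arrays.

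Epithelial genes were lower as a group: 1 was higher, 6 were lower and 4 lay inside 2-fold of 11 measured, with a median of -1.30. CLDN6, a tight junction protein of stem cells and embryonic epithelia, had 17809.5 (ESC), 2089 (EB), 1001 (N1), 665 (N2) and 205 (N3). It was 86.9-fold lower, the largest ratio of a lower gene measured above the floor at both ends, and its other probe set gave -7.04. KRT8, a keratin of simple epithelia, was 13.5-fold lower, while its usual partner KRT18 was 4.98-fold higher. The KRT18 signals were 139, 889.9, 1097, 869 and 691 from ESC to N3. EPCAM, an adhesion protein of stem cells and epithelia, was 5.55-fold lower, with a peak of 6065 in EB. CRB3, a polarity protein, was at least 4.60-fold lower, the desmosome gene DSP 2.58-fold lower and the claudin gene CLDN3 2.47-fold lower. CLDN4 (616 to 308) lay just inside 2-fold. CDH1 was under the floor on both arrays. Trophoblast genes had 0 higher and 2 lower members of 5: TFAP2C (10.9-fold lower), a factor of trophoblast and naive stem cells, and KRT7 (at least 3.52-fold lower).

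Genes of DNA replication and mitosis were lower in N3, and none of them was higher. Of 19 measured, 14 were past 2-fold, and the log2 ratios of all of them lay from -2.66 to -0.41 (median -1.47). CDC6, which loads the replicative helicase, had 1456 (ESC), 433 (EB), 494 (N1), 269 (N2) and 230.4 (N3), 6.32-fold lower. The helicase subunit genes MCM3 (5.93-fold lower), MCM4 (4.92-fold lower) and MCM2 (3.49-fold lower) were lower at each later stage, MCM3 with 6979.6, 4646, 2601, 1704 and 1177. CCNE1, the cyclin of S phase entry, was 5.08-fold lower, and the mitotic kinase gene AURKA 3.43-fold lower. Cell cycle inhibitors went the other way in part, with 4 of 9 higher and 0 lower (median 0.71). CDKN1B, which holds cells in G1, had 647 (ESC), 1803 (EB), 2640.2 (N1), 2636 (N2) and 3833 (N3), 5.93-fold higher. CDKN2C was at least 4.87-fold higher, CDKN2D 2.74-fold higher and CDKN1A, the p53 target, 2.64-fold higher. Inside 2-fold, CDKN2A (-0.66), GADD45B (-0.53), GADD45A (-0.33) and BTG2 (-0.11) had log2 ratios below 0. Other probe sets gave -0.98 and -1.17 for GADD45B and -1.20 and -2.51 for GADD45A.

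Chromatin genes had 4 higher (25%) and 3 lower (18.75%) members of 16 measured, with a median of 0.10 (-0.08 to 0.30 under other settings). These shares were near the 17.2% higher and 16.4% lower of all measured genes. HELLS, a chromatin remodeller needed for DNA methylation, was 4.23-fold lower (5131 to 1212). JARID2, a partner of the Polycomb complex, was 3.98-fold lower, and DNMT3A 3.16-fold lower. Higher members were the histone deacetylase gene HDAC9 (at least 8.43-fold higher), the remodeller ATPase gene SMARCA2 (4.80-fold higher) and DNMT1 (4.07-fold higher). DNMT1 had a single probe set, with 131 in ESC, near the floor, and 531 in N3. TET2, which oxidises methylated cytosine, was 7.63-fold higher, with 0.12 on its other probe set.

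WNT pathway genes were higher for 12 of 20 measured members, with 3 lower (median 1.37). Among receptors, FZD10 had 147 (ESC), 4389 (EB), 2723 (N1), 6213 (N2) and 8172 (N3), 55.6-fold higher, and FZD5 had 2683, 547, 285, 295 and 118 in the same order, 22.6-fold lower. The receptor gene FZD8 was at least 3.85-fold lower. These Frizzled genes thus went in opposite directions. Among ligands, WNT3 was 10.9-fold higher (176 to 1922) and WNT7A at least 6.76-fold higher. The secreted inhibitor genes DKK1 (7.66-fold higher), DKK3 (7.01-fold higher) and DKK2 (at least 5.05-fold higher, other probe set 0.25) were higher, whereas SFRP1, an inhibitor that binds WNT, was 3.41-fold lower (14643 to 4299).

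Notch genes were higher for 6 of 13 measured members (median 0.69). DLL1, a ligand on newborn neurons, had 264 (ESC), 935 (EB), 1221 (N1), 3780.4 (N2) and 6058 (N3), 22.9-fold higher, although a second probe set gave -0.84. The ligand gene JAG2 was at least 3.75-fold higher and the receptor gene NOTCH3 3.69-fold higher, against -1.36 on its other probe set. Target genes split. HEY1 was 4.87-fold higher, HEY2 at least 2.83-fold higher and HEYL 2.42-fold higher (other probe set -2.27), whereas HES1, a target in many cell types, had 485, 326, 479.9, 672 and 115 from ESC to N3 and was 4.21-fold lower. DNER, a Notch-related protein of neurons, was 38.3-fold higher. DLK1, another member of that protein family, is described with the imprinted genes.

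FGF pathway genes had equal numbers each way, 5 higher (35.7%) and 5 lower (35.7%) of 14 measured (median -0.25, mean -0.16). Both shares were above those of all measured genes, 17.2% higher and 16.4% lower. FGF2, which maintains primate stem cells, had 1196 (ESC), 25.5 (EB), 19.7 (N1), 42.1 (N2) and 60.1 (N3), at least 11.96-fold lower. ETV4, a target of FGF signalling, was 7.39-fold lower, the receptor gene FGFR1 2.53-fold lower, FGF12 2.37-fold lower and the feedback inhibitor gene SPRY4 2.22-fold lower. FGF9, a neuronal ligand, was 5.90-fold higher, the receptor gene FGFR2 2.52-fold higher and FGF13, an intracellular relative, 2.47-fold higher. Other FGFR2 probe sets had log2 ratios from -1.23 to 1.12. SPRY2 was 2.55-fold higher and FGFBP3 4.30-fold higher, with -0.68 and -0.21 on their other probe sets. FGF4 itself, the factor added at N2 and taken away at N3, was near the floor, with 152 in ESC and 98.7 in N3.

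TGF-beta and BMP genes had 5 higher (27.8%) and 4 lower (22.2%) members of 18 measured (median 0.14), against 17.2% and 16.4% of all measured genes. TGFBI, a matrix protein induced by TGF-beta, had 220.3 (ESC), 10239.5 (EB), 3479 (N1), 5469 (N2) and 4665 (N3), 21.2-fold higher. The ligand genes BMP7 (11.8-fold higher), INHBA (7.88-fold higher), TGFB3 (at least 3.18-fold higher) and BMP2 (at least 2.60-fold higher) were higher, though the other BMP7 probe sets gave 0.91, 0.78, -0.55 and -0.51. FST, an antagonist of activin, was 4.99-fold lower (7069 to 1418), and all of its other probe sets were lower (-3.16 and -2.59). GREM1, a BMP antagonist, was at least 4.63-fold lower (other probe set -0.29), the BMP target gene ID1 3.0-fold lower and BMP4 2.22-fold lower. NODAL, a stem cell ligand counted with pluripotency, was at least 2.37-fold lower.

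Imprinted genes and the insulin-like growth factor axis had 8 higher and 1 lower members of 18 measured (median 0.71). H19, an imprinted non-coding RNA, had 414 (ESC), 52029 (EB), 41387 (N1), 51046 (N2) and 42808 (N3). It was 103-fold higher, the largest ratio of any gene measured above the floor at both ends, and its other probe sets gave 3.97 and 2.27. IGF2, which shares a locus with H19, was at least 10.6-fold higher (70.2 to 1059). DLK1 had 341, 22327, 20994, 23693 and 17398 from ESC to N3, 51.1-fold higher. PEG3 was 21.02-fold higher, with 4.21 on a second probe set, the zinc finger gene PLAGL1 13.1-fold higher and IGF1 at least 14.8-fold higher. For H19, DLK1, PEG3 and PLAGL1 the signal was already high in EB. IGFBP6 was 5.75-fold lower.

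Metabolic genes differed by pathway. Oxidative phosphorylation genes were lower for 5 of 9 measured members (55.6%), with 1 higher (11.1%) (median -1.14, -1.17 to -0.15 under other settings). COX5A, a subunit of cytochrome oxidase, was 3.44-fold lower (15111 to 4398), but its other probe sets had log2 ratios of 1.70 and 1.15. The ATP synthase gene ATP5F1B (2.88-fold lower) and UQCRC1 (2.21-fold lower) also had a probe set the other way, at 1.31 for the former. With each gene as the median of its probe sets, the list had a median of -0.15 and COX5A one of 1.15. NDUFA4 was 2.35-fold lower, UQCRC2 2.29-fold lower and SDHA, a subunit of complex II, 2.08-fold higher. Glycolysis genes were mostly inside 2-fold (12 of 15, median -0.10, -0.17 to 0.11 under other settings), as were 7450 of all 11232 measured genes. Of the list 13.3% were higher and 6.67% lower, against 17.2% and 16.4% of all measured genes. The glucose transporter genes went opposite ways, SLC2A1 2.77-fold higher and SLC2A3 2.08-fold lower, and the phosphofructokinase gene PFKP was 3.35-fold higher.

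Cholesterol synthesis genes were higher for 4 of 9 measured members (44.4%), with 0 lower (median 0.75), against 17.2% and 16.4% of all measured genes. The higher ones were the demethylase gene CYP51A1 (5.42-fold higher, 529 to 2868), the sterol sensor gene INSIG1 (3.86-fold higher), IDI1 (2.61-fold higher) and SQLE (2.54-fold higher, other probe set 0.12). None of 9 measured ribosomal protein genes of the list was past 2-fold, and their log2 ratios ran from -0.85 to 0.05.

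Interferon-response and antigen presentation genes were lower for 5 of 13 measured members (38.5%), with 0 higher (median -0.35, -1.56 to -0.15 under other settings). All measured genes had 16.4% lower and 17.2% higher. IFITM1, an antiviral membrane protein that stem cells carry, had 29942 (ESC), 2846 (EB), 1933 (N1), 2370.1 (N2) and 1325 (N3), 22.6-fold lower, with -5.52 on its other probe set. B2M, the light chain of class I molecules, was 3.20-fold lower (21979 to 6878). BST2 (4.33-fold lower), MX1 (4.25-fold lower) and ISG15 (3.26-fold lower), all interferon-induced, were lower. TRIM22, a further interferon-induced gene, was at least 33.4-fold lower, with -0.83 on its other probe set, and was at 66.8 in EB. The list of steroid hormone receptors and their cofactors had no member past 2-fold among 3 measured, of which NR3C1 was the only receptor gene. The receptor genes ESR1, ESR2 and PGR were under the floor on both arrays. Of 9 stress and immediate early genes ATF3, a stress-induced factor, was 2.50-fold lower, and the others lay inside 2-fold.

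Further genes at the extremes belonged to none of these lists. MT2A, a metal-binding metallothionein, had 37103 (ESC), 2848 (EB), 907 (N1), 774 (N2) and 604 (N3), 61.5-fold lower. PMAIP1, a cell death inducer, was 30.2-fold lower, with -5.09 on its other probe set. Lower genes also included the transcription factor gene NFE2L3 (16.2-fold lower), the urokinase gene PLAU (15.9-fold lower), the RNA-binding protein gene RBPMS (14.1-fold lower), the glycosyltransferase gene GCNT1 (13.5-fold lower) and the vesicle adaptor gene AP1S2 (13.3-fold lower). The other AP1S2 probe sets lay inside 2-fold, at log2 ratios of -0.57 and -0.80. VTCN1, an immune checkpoint ligand, was at least 28.1-fold lower, SFN, the 14-3-3 protein of epithelia, at least 24.4-fold lower, ARHGAP36 at least 24.5-fold lower and LOC699676 at least 25.3-fold lower. Higher in N3 were MAP6D1, related to a microtubule stabiliser (31.2-fold higher), NRN1, a neurite growth factor (28.2-fold higher), MOXD1, a monooxygenase (43.2-fold higher, other probe set 2.24), and LOC716834 (51.4-fold higher). NRN1 had 202, 32.2, 466, 2542 and 5688 from ESC to N3, with each signal from N1 on above the one before. NCL, nucleolin, was 67.6-fold higher on its brightest probe set with -1.03 on another, and the lipid flippase gene ATP8B3 was at least 108-fold higher with -0.11 and -0.82. The gene assignment of probe sets that disagree, as for NCL, ATP8B3, COX5A and HEYL, is doubtful and was not tested.

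**Figure D5:**
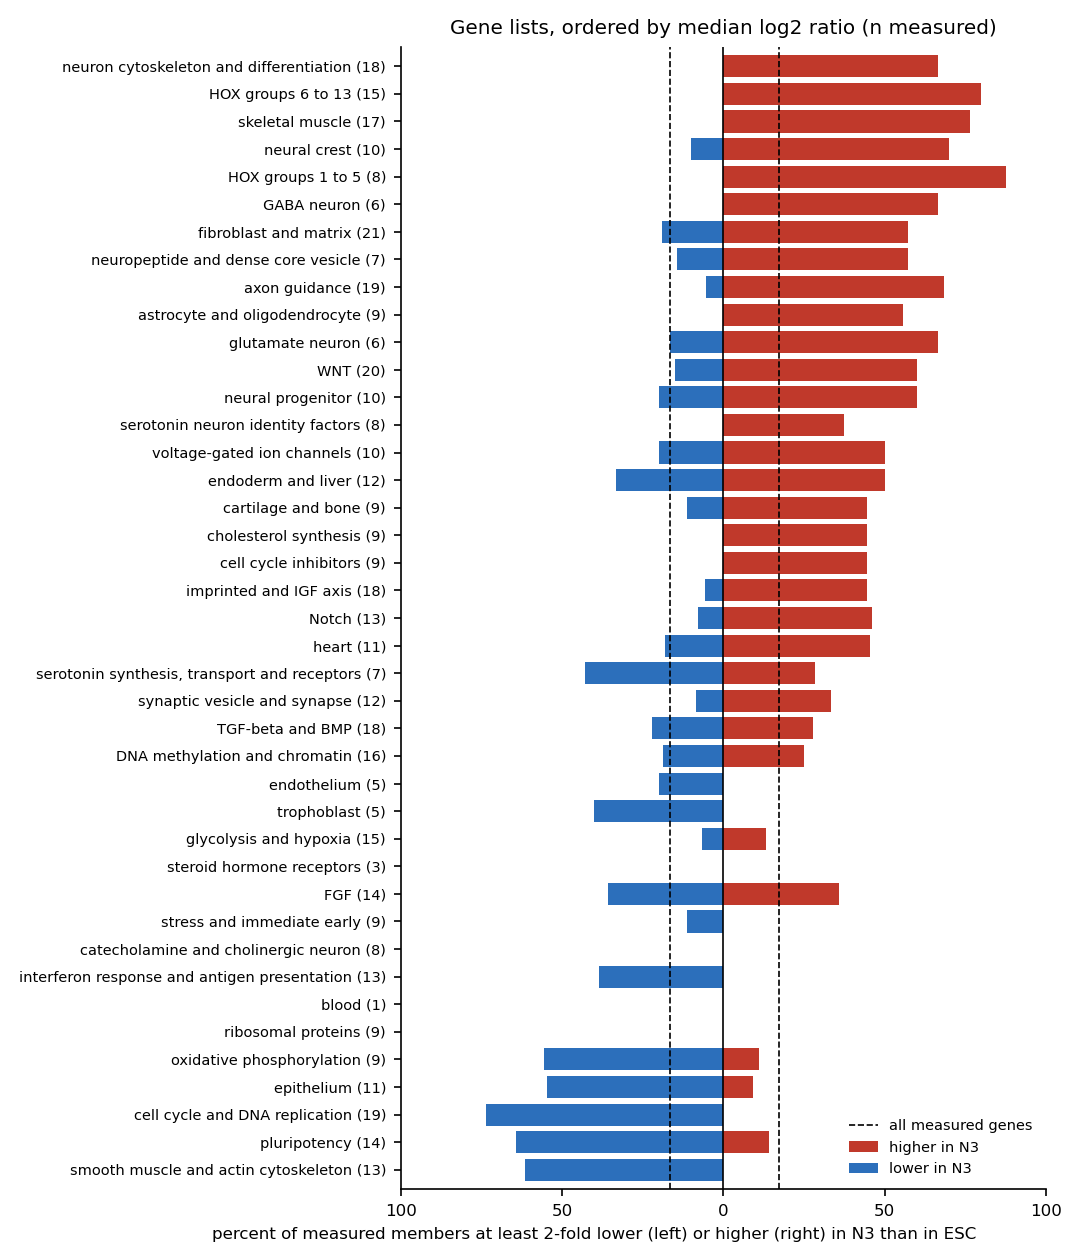
Share of the measured members of each of 41 gene lists that were at least 2-fold higher (right, red) or lower (left, blue) in N3 than in ESC, in percent, with the number measured in brackets and the lists ordered by median log2 ratio; dashed lines mark all measured genes, 17.2% higher and 16.4% lower. Neuron, HOX, skeletal muscle and neural crest lists stand at the top and smooth muscle, pluripotency, cell cycle and epithelium at the bottom.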

How the data were processed

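Rhesus Affymetrix arrays of 5 stages, 1 array a stage, were read from the table of intensities that the authors deposited, made with GCOS 1.0 per the submitters' processing notes. How GCOS computed and scaled the signal is not given in the sources used here. The deposited arrays had 2% trimmed means of 199.1 to 199.3 and were scaled by 2.51 to a mean of 500. Intensities under 100 were set to that floor before log2 was taken. Of 52865 probe sets, 24969 carried 1 gene symbol in the annotation of the platform, 361 several and 27535 were not listed. A gene was read from its probe set with the highest mean over the 5 arrays, and genes with no such probe set were not analysed. Calls were 2-fold differences with no test, since 1 array a stage limits the precision and gives no spread. The calculation was tested on simulated data. Members and the 41 gene lists (745 genes, 465 measured) were chosen with earlier results of these data known. Genes were named by a rule. It took the 15 largest ratios each way with both signals above the floor and the 8 largest bounds each way. It also took up to 6 members each way of a list and the cell type markers. NODAL, FGF4, NR4A2, CDKN2A, GADD45A, GADD45B, BTG2, HTR and steroid receptor genes and HOX genes under the floor were added after their values were seen. Alternatives were other scalings, floors, probe set choices and a 4-fold threshold. Promoter motifs were not analysed here. Python 3.11.15, numpy 2.4.6, pandas 2.3.3 and matplotlib 3.10.9 were used.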

Additional observations from a re-analysis of the deposited data

How the results depend on the processing

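The 10 alternative settings gave 2771 log2 ratios for 279 genes named here. Of these ratios, 2456 stayed within the spread between probe sets of a gene and 9 turned. Another 306 moved further with the same sign or without a 2-fold difference. A floor of 200 moved 106, a floor of 50 moved 69, no floor 68 and the median of probe sets 55. Each other scaling moved 0 or 1, and most scalings shift all genes of an array alike, so they could move few. Of 409 medians of the 41 lists, 371 moved by less than 1.5-fold, and 10 had the opposite sign. A 4-fold threshold left 726 genes higher and 316 lower, fewer by its own construction, with a higher share of 69.7%. That share was 63.6% with scaling to hybridisation controls, 45.9% with quantile normalisation, 46.3% with the median of probe sets, 47.0% with a floor of 50 and 47.1% with no floor. With a floor of 50, list medians that moved were those of GABA (3.24), neuropeptide (0.63), HOX groups 1 to 5 (3.51), glial (0.93), neural crest (1.06) and endothelial genes (-0.73). With a floor of 200 they were neuropeptide (1.09), HOX groups 1 to 5 (1.96), neural crest (2.06), skeletal muscle (2.23), cartilage and bone (1.59), endoderm (0.033), trophoblast (-0.82) and interferon genes (-1.56). With no floor they were pluripotency (-2.20), GABA (3.41), neuropeptide (1.16), HOX groups 1 to 5 (4.07), neural crest (1.76), ion channel (1.66), skeletal muscle (3.67), heart (1.77), endoderm (1.48), endothelial (-0.92) and blood genes (-3.92). With the median over probe sets they were young neuron (2.85), GABA (1.74), HOX groups 6 to 13 (2.01), neural crest (1.28), fibroblast and matrix (1.15), endoderm (0.011) and oxidative phosphorylation genes (-0.15). With the probe set brightest over ESC and N3 they were HOX groups 6 to 13 (2.01), glial (0.94), neural crest (1.75), fibroblast and matrix (1.42) and endoderm genes (0.011). With probe sets with names ending in _s_at, _x_at or _a_at left out, endoderm genes were at -0.20 and APOC3 turned to -0.36. MSX2 turned to -0.45 with a floor of 50, no floor or the probe set brightest over ESC and N3. The median of probe sets turned ATP8B3 (-0.11), COL5A2 (0.60), COX5A (1.15), HEYL (-0.50) and PROM1 (0.84). The cause was not tested. Signals near the floor limit ratios to bounds. No paired analysis was possible because each stage has 1 array.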

Other observations

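Gene families were gathered by symbol after their values were seen, and some hold genes of the lists above. Of 62 measured genes of the mitochondrial ribosome, 30 were lower in N3 and 1 was higher, with a median log2 ratio of -0.93, while 38 genes of the cytosolic ribosome had 3 higher and 3 lower and a median of -0.42. MRPS12, a small subunit protein of the mitochondrial ribosome, was 4.17-fold lower (3171 to 761), with -2.52 and -2.10 on its other probe sets. Proteasome genes were lower for 11 of 24 and higher for 0, mitochondrial import genes for 7 of 16 and 0, and RNA exosome genes for 5 of 9 and 0. KLHL genes, which encode adaptors of ubiquitin ligases, were higher for 14 of 23 and lower for 2, among them the muscle member KLHL41 (at least 23.3-fold higher, other probe set 0.90). Genes of KDM histone demethylases were higher for 6 of 14 and lower for 0, ZNF zinc finger genes for 55 of 250 and 16, protocadherin genes for 7 of 15 and 1, and collagen genes for 13 of 30 and 6. Kinesin genes were higher for 5 of 25 and lower for 6, eIF translation initiation genes for 0 of 35 and 8, keratin genes for 2 of 17 and 4, annexin genes for 0 of 8 and 2, MCM helicase genes for 0 of 8 and 5 and metallothionein genes for 1 of 3 and 2. Over all measured genes the shares were 17.2% higher and 16.4% lower.

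Several regulators seen only after ranking the genes stood with those named before. MEIS1, a HOX cofactor, was at least 56.3-fold higher, and the nuclear receptor gene NR2F2 at least 43.4-fold higher with 5.39 on its other probe set. The zinc finger genes TSHZ1, TSHZ2 and TSHZ3, named after a trunk factor of the fly, were at least 40.4-fold higher, at least 15.7-fold higher and 10.5-fold higher. ALDH1A2, which makes retinoic acid, had 50.2 (ESC), 1179.6 (EB), 3073 (N1), 2812 (N2) and 1335 (N3). RBFOX1, a splicing factor of neurons and muscle, was at least 41.9-fold higher, with 4.61 and 4.32 on its other probe sets, and POU4F2, a factor of retinal and sensory neurons, was 21.7-fold higher. OTP, a hypothalamic and hindbrain factor, was at least 12.8-fold higher and LHX9, a dorsal interneuron factor, at least 18.9-fold higher (other probe set 0.65). Tendon and matrix genes ASPN (at least 36.8-fold higher), OGN (at least 15.3-fold higher) and FMOD (at least 12.5-fold higher) were higher, and so were the muscle genes CASQ2 (at least 19.8-fold higher) and MYOT (at least 10.4-fold higher). ZSCAN10, a partner of the stem cell factors, was at least 17.2-fold lower, and HMGA1, a chromatin protein of growing cells, was 10.1-fold lower (23263 to 2311).

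Probe sets without a gene symbol here numbered 26716, and 13936 of them were measured. Of these 3181 (22.8%) were higher in N3 and 1519 (10.9%) lower.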
